A study of Mus musculus with 6 samples.

Results

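The genes described here are 8 genes tied to the formation of lipid droplets in microglia: Slc33a1, Snx17, Vps16, Vps35, Vps26a, Vps29, Grn and Sort1. Slc33a1, Snx17, Vps16, Vps35 and Grn were linked to droplets by the genetic work of the study, and the others are partners of their products. They were chosen by symbol from the 15912 genes of the deposited table, and all 8 were found. RNA sequencing compared BODIPY-high with BODIPY-low microglia from the hippocampus of male C57BL/6 mice aged 3 months, with 3 libraries in each gate. BODIPY is a dye that stains neutral lipid, so the high gate is rich in lipid droplets and the low gate is poor in them. Every mouse of both gates had received lipopolysaccharide (LPS, a bacterial product that provokes inflammation) into the peritoneum at 1 mg/kg for 4 days, and tissue was collected 24 h after the last dose. Each sample pooled the hippocampi of 2 mice, and about 10000 live cells with CD11b and low CD45 were sorted per sample. Mice given PBS were not analysed here.

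Apart from Slc33a1, the products of these genes act in the traffic of membrane proteins and enzymes between the Golgi, endosomes and lysosomes. Retromer, built from Vps35, Vps29 and either Vps26a or Vps26b, lifts cargo receptors out of endosomes before they reach the lysosome, and Snx17 hands other receptors to the related Commander machinery for return to the cell surface. Vps16 is a core subunit of the HOPS and CORVET complexes, which tether endosomes and lysosomes so that they can fuse. Progranulin, the product of Grn, is a secreted and lysosomal protein that is abundant in microglia, and sortilin, the product of Sort1, carries it to the lysosome. Slc33a1 encodes the transporter that brings acetyl-CoA into the endoplasmic reticulum.

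None of the 8 genes differed between BODIPY-high and BODIPY-low microglia at an adjusted p under 0.05. Of all 12767 genes tested, limma with Benjamini-Hochberg adjustment called 2.05% (2.03% higher and 0.0235% lower in BODIPY-high). With the replicate number as a block it called 0 of the 8 genes and 4.83% of all genes (4.37% higher, 0.462% lower). On recovered reads edgeR called 0 of the 8 and 1.75% of all (1.74% higher, 0.00783% lower), and DESeq2 called 0 of the 8 and 3.89% of all (3.63% higher, 0.251% lower). At an unadjusted p under 0.05 limma gave 1 of the 8, Vps16, which was higher, against 10.3% of all genes (8.03% higher, 2.27% lower). The block gave 2 of the 8, Vps16 and Vps35, both higher, against 17.8% of all genes (11.6% higher, 6.28% lower). All 8 genes lay within 0.3 of 0 on the log2 scale, as did 73.1% of all genes tested. The log2 changes of the 8 genes lay between -0.11 and 0.28, with a median of 0.05, against a median of -0.0043 over all genes tested. Their 95% intervals spanned BODIPY-high over BODIPY-low ratios of 0.759 to 1.41, so larger changes lay outside every one of the 8 intervals. The standard errors of the 8 log2 changes were 0.087 to 0.15, against a median of 0.18 over all genes tested. The lowest mean of any of the 8 in a gate was 1720.5 normalized counts (reads per gene divided by a factor for library size), and the median level of all genes tested was 692.

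**Figure D1:**
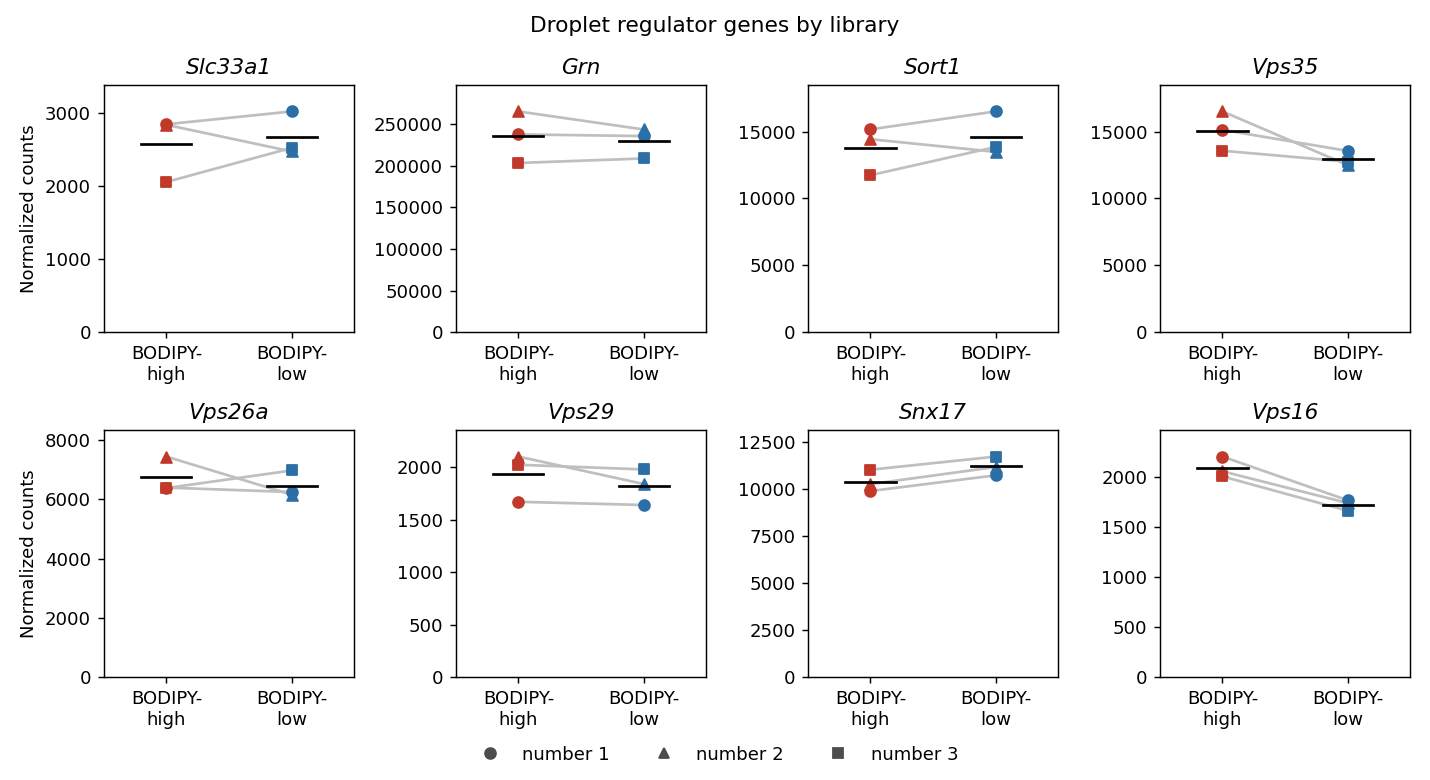
Normalized counts (vertical axes, from 0) of the 8 genes in the 3 BODIPY-high libraries (red, left) and the 3 BODIPY-low libraries (blue, right); black bars are gate means, and grey lines join libraries of the same number. The gates are apart without overlap for Vps16 and Vps35 alone among the 8.

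**Figure D2:**
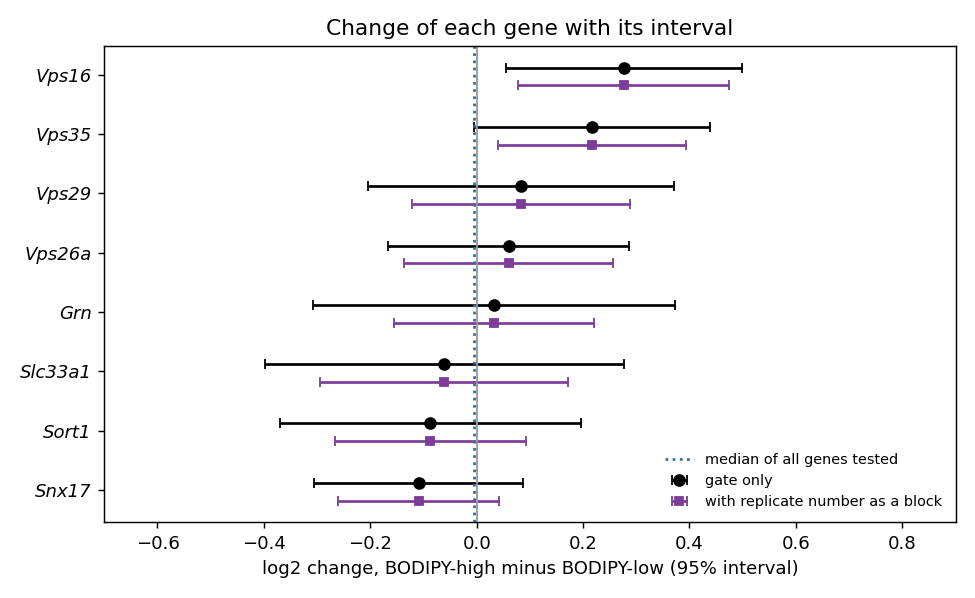
Log2 change, BODIPY-high minus BODIPY-low, of each of the 8 genes (vertical axis) with its 95% interval from limma, with the gate alone (black) and with the replicate number as a block (purple). The black interval of Vps16, 0.05 to 0.50, is the only one of the 8 that leaves out 0, and its adjusted p of 0.324 did not pass the test.

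Libraries held 34899413 to 39220494 recovered reads. Of the 10 microglia markers (among them Tmem119, P2ry12 and Cx3cr1), all were detected. Their summed level was 1874127 to 2571039 normalized counts in BODIPY-high libraries and 2414887 to 2820877 in BODIPY-low libraries. All 10 had a negative log2 change (median -0.26, range -0.45 to -0.05). Limma called 0 of them, and 1 was called lower with the replicate block. For 3 of the 10 the gates had no overlap with BODIPY-high below, against 5.95% of all genes tested. Markers of other cells were also present, and limma called those of some types higher in the high gate, against 2.03% of all genes tested. These calls held 7 of 7 tested choroid plexus markers (summed level 39581 to 51909 in BODIPY-high, 306 to 2292 in BODIPY-low). They also held 9 of 12 of border-associated macrophages (43994 to 122302 in BODIPY-high, 17574 to 24502 in BODIPY-low). The same held for 4 of 8 astrocyte, 2 of 7 oligodendrocyte and 2 of 4 oligodendrocyte precursor markers. It held for 0 of the tested neuron, endothelial, monocyte and neutrophil markers. With the replicate block, 2 of 6 monocyte and 2 of 7 neutrophil markers were called higher. Neutrophil markers summed to 79224 to 185933 in BODIPY-high and 68452 to 137549 in BODIPY-low libraries. Oligodendrocyte precursor markers summed to 4.13 to 29.6 in BODIPY-low libraries. They could not meet the filter of 10 normalized counts in 3 libraries without BODIPY-high libraries, so their calls are descriptions. The part of these other cells in the values below was not tested. In such bulk samples, fewer cells of a type and less RNA per cell cannot be told apart.

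Per length of transcript the 8 genes differed widely in level. Grn stood first with 86918 to 113383 normalized counts per kb over the 6 libraries, which put it at rank 15 of the 12267 tested genes with an annotated length. Snx17 followed with 4906 to 5814 per kb, then Vps35 with 3594 to 4749.8, Vps26a with 2368 to 2863 and Sort1 with 1728 to 2429. Slc33a1 had 654 to 961 per kb, Vps29 604 to 774 and Vps16 525 to 696. The ranges of Vps26a and Sort1 overlapped, as did those of Slc33a1, Vps29 and Vps16 with each other. Slc33a1 lay above Vps16 in each of the 6 libraries. The other overlapping pairs changed order between libraries and cannot be ordered. Lengths were those of the principal transcript. Over all annotated exons merged, Vps35 lay below Vps26a and Sort1 (means of 1573, 2306 and 1876 per kb), and Vps29 below Vps16 (305 and 511).

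**Figure D3:**
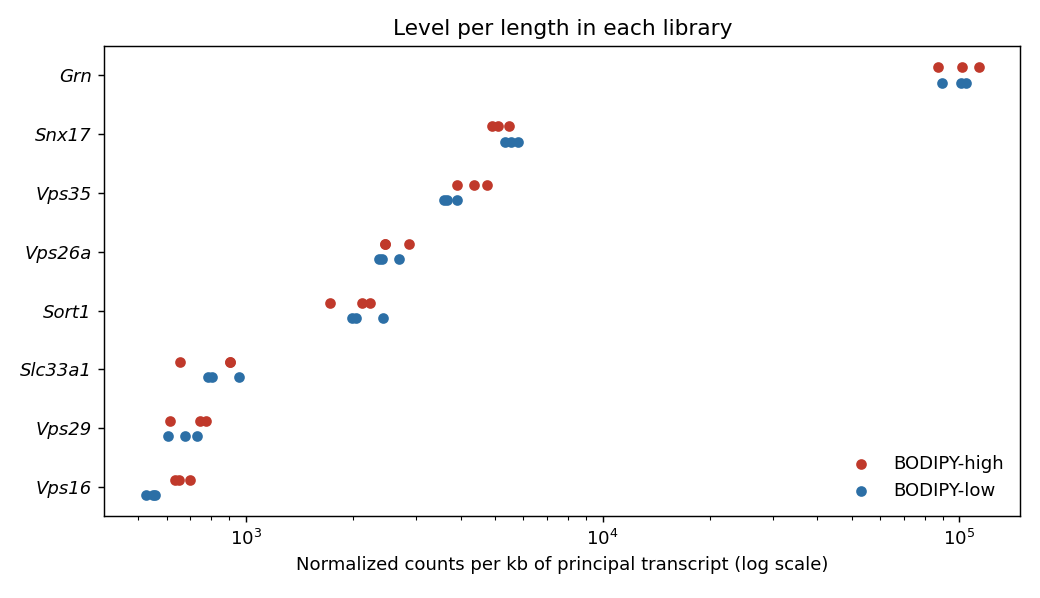
Normalized counts per kb of the principal transcript (horizontal axis, log scale) of the 8 genes in each BODIPY-high (red, above) and BODIPY-low library (blue, below). Grn lies at 86918 to 113383 per kb, and the next gene, Snx17, at 4906 to 5814.

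Slc33a1 did not differ between the gates beyond the spread of its libraries. It lies on chromosome 3, 63933507 to 63964768, on the minus strand (mm10, GENCODE M21). Its normalized counts were 2849.9, 2843 and 2059 in BODIPY-high libraries 1, 2 and 3, and 3026, 2477 and 2527 in BODIPY-low libraries 1, 2 and 3. The lowest value was in the high gate and the highest in the low gate, and the gates overlapped. The means were 2584 ± 455 in BODIPY-high and 2677 ± 303 in BODIPY-low (SD, n = 3 each), a log2 change of -0.06 ± 0.15 (SE, 95% interval -0.40 to 0.28, limma adjusted p = 0.948). Leaving out BODIPY-high library 3 turned the sign (0.095), and so did leaving out BODIPY-low library 1 (0.030).

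Genes that supply or use acetyl-CoA gave 0 of 13 tested members past limma in either direction, with a median log2 change of 0.09. At an unadjusted p under 0.05, 1 of them was higher and 0 were lower, against 8.03% and 2.27% of all genes tested. By the count tests, edgeR passed 0 and DESeq2 passed 1. The lowest p belonged to Hgsnat, which encodes the lysosomal enzyme that uses acetyl-CoA to acetylate heparan sulfate. It had 6876, 8024 and 12369 normalized counts in BODIPY-high and 6099, 5209 and 5227 in BODIPY-low libraries, with no overlap and the highest value in BODIPY-high library 3. Its log2 change was 0.68 ± 0.19 (limma adjusted p = 0.170, and 0.0374 with the replicate block). Acat2, a cytosolic thiolase that condenses acetyl-CoA, was next with 675 ± 4.42 in BODIPY-high and 572 ± 8.31 in BODIPY-low (log2 change 0.24, adjusted p = 0.620).

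Grn was one of the most abundant transcripts of these cells in both gates. It lies on chromosome 11, 102430315 to 102437048, on the plus strand, and took 0.634 ± 0.0717% of reads in BODIPY-high and 0.608 ± 0.0435% in BODIPY-low libraries (SD, n = 3 each). Its normalized counts were 237758, 265317 and 203387 in BODIPY-high libraries 1 to 3, and 235705, 243637 and 208816 in BODIPY-low libraries 1 to 3. The low gate lay inside the range of the high gate, and library 3 was the lowest of both. The log2 change was 0.03 ± 0.15 (95% interval -0.31 to 0.37, limma adjusted p = 0.975). Taking the libraries in pairs of the same number narrowed the interval to -0.16 to 0.22. Its sign changed without BODIPY-high library 2 (-0.058) and without BODIPY-low library 3 (-0.034).

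Sort1, the gene of the progranulin receptor sortilin (chromosome 3, 108284082 to 108361511, plus strand), had 15170.3, 14433 and 11742 normalized counts in BODIPY-high libraries 1 to 3. In BODIPY-low libraries 1 to 3 it had 16509, 13485 and 13855. The gates overlapped, with the lowest value in BODIPY-high library 3 and the highest in BODIPY-low library 1. The log2 change was -0.09 ± 0.12 (95% interval -0.37 to 0.20, adjusted p = 0.897), and its sign turned on leaving out BODIPY-high library 3 (0.024) or BODIPY-low library 1 (0.0032). The log2 ratio of Sort1 to Grn within a library averaged -4.09 ± 0.12 in BODIPY-high and -3.97 ± 0.18 in BODIPY-low (SD, n = 3 each). This difference of -0.12 was within the spread (two-sided exact permutation p = 0.4, where 0.1 is the smallest possible), although the ratio was lower in the BODIPY-high library of each of the 3 pairs (p = 0.25 by exact sign flips, the smallest possible with 3 pairs).

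In BODIPY-high library 3, where Slc33a1, Grn and Sort1 each had their lowest value, the summed border-associated macrophage markers were at 122302 normalized counts, against 43994 and 48812 in BODIPY-high libraries 1 and 2. The summed microglia markers were at 1874127 there, against 2571039 and 2369924 in BODIPY-high libraries 1 and 2. BODIPY-high library 3 was also above BODIPY-high libraries 1 and 2 in neutrophil (185933 against 79224 and 97072) and monocyte markers (32383 against 9238 and 20343). The same was true of oligodendrocyte (14606 against 8302 and 8532) and oligodendrocyte precursor markers (336 against 89 and 83). It was below them in astrocyte (12768) and endothelial markers (1145). The part of any of these in the low values of that library was not tested.

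Genes of progranulin binding and processing gave 0 of 14 past limma, with a median log2 change of -0.035, and 0 in either direction at an unadjusted p under 0.05; edgeR and DESeq2 called 0. The lysosomal proteases Ctsb and Ctsl, which can cleave progranulin, had the lowest p of the list and opposite signs. Ctsb had 319158 ± 25136 normalized counts in BODIPY-high and 260986 ± 6815 in BODIPY-low, a log2 change of 0.29 ± 0.14 (adjusted p = 0.531). Ctsl had 70035 ± 6564 in BODIPY-high and 80685 ± 3667 in BODIPY-low, a log2 change of -0.21 ± 0.11 (adjusted p = 0.607). Psap, the gene of prosaposin, a partner of progranulin on its way to the lysosome, had 170025 ± 10197 in BODIPY-high and 178839 ± 9363 in BODIPY-low (log2 change -0.07, adjusted p = 0.914).

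Among 25 genes known to be raised in microglia of Grn-deficient mice, 1 rose and 0 fell, with a median log2 change of 0.13. That gene was Lpl, which encodes lipoprotein lipase. Lpl had 2078, 2856 and 2571 normalized counts in BODIPY-high and 889, 846 and 1113 in BODIPY-low libraries, with a wide gap between gates. The log2 change was 1.40 ± 0.16 (limma adjusted p = 0.00493), and it was lost without BODIPY-high library 2 (adjusted p = 0.0522). Itgax, the gene of the integrin CD11c, had 1590.4 ± 165 in BODIPY-high and 1187 ± 128 in BODIPY-low (log2 change 0.42, adjusted p = 0.222, and 0.0498 with the block). With the block, 8 of the 25 were called higher and 0 lower, against 4.37% and 0.462% of all genes tested. At an unadjusted p under 0.05 limma gave 6 higher and 1 lower, against 8.03% and 2.27% of all genes. By the count tests, edgeR called 1 and DESeq2 called 2. The gates had no overlap with BODIPY-high above for 5 genes and below for 4, against 10.4% and 5.95% of all genes. Trem2, the lipid-sensing receptor of microglia, had 39630.4 ± 958 in BODIPY-high and 48227 ± 2839 in BODIPY-low (log2 change -0.28, adjusted p = 0.278). The list was chosen with earlier results on several of its genes known.

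Other receptors and adaptors that sort lysosomal proteins at the Golgi, the setting in which sortilin works, gave 0 of 16 past limma (edgeR 0, DESeq2 1). Their median log2 change was 0.08. At an unadjusted p under 0.05, 2 of the 16 were higher and 0 lower, against 8.03% and 2.27% of all genes tested. Gga2, an adaptor that links such receptors to clathrin, had 1731 ± 118 normalized counts in BODIPY-high and 1271 ± 152 in BODIPY-low (log2 change 0.45, adjusted p = 0.157). Ap1b1, the gene of a subunit of the AP-1 clathrin adaptor, had 12757 ± 1032 in BODIPY-high and 10253 ± 182 in BODIPY-low (log2 change 0.31, adjusted p = 0.179). Both passed limma with the replicate block (adjusted p = 0.0303 and 0.0364), which called 4.37% of all genes tested higher. Both were higher in the BODIPY-high library of 3 of 3 pairs, as were 20.7% of all genes tested. They were named as the 2 genes of lowest p in the list, so these results are not further support.

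Of the retromer subunits, Vps35 had the largest difference between gates. Vps35, the scaffold of the complex (chromosome 8, 85260392 to 85299802, minus strand), had 15124, 16501 and 13564 normalized counts in BODIPY-high libraries 1 to 3, and 13548, 12487 and 12744 in BODIPY-low libraries 1 to 3. Every BODIPY-high library lay above every BODIPY-low library, but the lowest BODIPY-high and the highest BODIPY-low value were nearly equal. The means were 15063 ± 1469 in BODIPY-high and 12926 ± 553 in BODIPY-low, a ratio of 1.17 (log2 change 0.22 ± 0.10, 95% interval -0.0051 to 0.44, adjusted p = 0.503). With the replicate block the interval was 0.04 to 0.39, and the adjusted p of 0.180 did not pass. Of the 8 genes, 2 had no overlap with BODIPY-high above (Vps35 and Vps16) and 0 with BODIPY-high below, where 10.4% and 5.95% of all genes tested did (16.3% in either direction).

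Vps26a, the arrestin-like subunit (chromosome 10, 62455235 to 62486805, minus strand), had 6392, 7436 and 6375 normalized counts in BODIPY-high and 6242, 6151 and 6968 in BODIPY-low libraries. The gates overlapped, and the log2 change was 0.06 ± 0.10 (95% interval -0.17 to 0.29, adjusted p = 0.914), or -0.013 without BODIPY-high library 2. Vps29, the smallest subunit (chromosome 5, 122354369 to 122364984, plus strand), had 1671, 2101 and 2023 in BODIPY-high and 1640.2, 1839.8 and 1978 in BODIPY-low libraries. It was slightly higher in the BODIPY-high library of 3 of 3 pairs, within a spread that covered both gates (log2 change 0.08 ± 0.13, 95% interval -0.20 to 0.37, adjusted p = 0.905).

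Vps26a and its paralogue Vps26b take the same place in retromer, and Vps26a supplied most of the pool in both gates. Per kb, it made up 80.4, 83.4 and 77.1% of the sum of both in BODIPY-high libraries 1 to 3, and 80.3, 81.9 and 80.7% in BODIPY-low libraries 1 to 3. The means of 80.3 ± 3.11% in BODIPY-high and 81.0 ± 0.786% in BODIPY-low did not differ beyond the spread (two-sided exact permutation p = 0.8, where 0.1 is the smallest possible). BODIPY-high library 3 alone lay below the low gate, and without it the difference was 0.897 percentage points in place of -0.679.

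The wider set of retromer genes and partners gave 0 of 16 past limma, with 12 positive and 4 negative log2 changes and a median of 0.10. By edgeR and DESeq2, 0 were called. At an unadjusted p under 0.05, 2 were higher and 0 lower, against 8.03% and 2.27% of all genes tested. Those 2 were the sorting nexin Snx2, with 4894 ± 447 normalized counts in BODIPY-high and 4047 ± 179 in BODIPY-low (log2 change 0.27, adjusted p = 0.336), and Ankrd27, a Rab effector that binds Vps29, with 1672 ± 38.2 in BODIPY-high and 1361 ± 115 in BODIPY-low (log2 change 0.30, adjusted p = 0.350). In the WASH complex, which retromer recruits to build actin on endosomes, 0 of 5 passed limma, edgeR or DESeq2. At an unadjusted p under 0.05, 2 of the 5 were higher and 0 lower, against the same shares of all genes. Washc5 (listed as E430025E21Rik) had 2980.3 ± 181 in BODIPY-high and 2297 ± 309 in BODIPY-low (log2 change 0.38, adjusted p = 0.233, and 0.0342 with the block). Washc2 (listed as Fam21) had 4361 ± 438 in BODIPY-high and 3582 ± 275 in BODIPY-low (log2 change 0.28, adjusted p = 0.385).

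Snx17, the adaptor that recognises receptors such as Lrp1 (chromosome 5, 31193227 to 31199143, plus strand), was the gene of lowest log2 change among the 8. It had 9901, 10269 and 11034 normalized counts in BODIPY-high libraries 1 to 3, and 10737, 11179 and 11732 in BODIPY-low libraries 1 to 3. The BODIPY-high library was the lower one in each of the 3 pairs, by 0.12, 0.12 and 0.09 on the log2 scale, but the gates overlapped. The means were 10401 ± 578 in BODIPY-high and 11216 ± 499 in BODIPY-low (log2 change -0.11 ± 0.09, 95% interval -0.31 to 0.09, adjusted p = 0.781, and 0.454 with the block). Of the 8 genes, 3 were higher in 3 of 3 pairs (Vps16, Vps35 and Vps29) and 1 was lower (Snx17), where 20.7% and 19% of all genes tested were (39.7% in either direction).

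Snx17 was listed with the Commander complex, through which it returns receptors to the surface. This list, Snx17 included, gave 0 of 17 past limma, edgeR or DESeq2 and 0 at an unadjusted p under 0.05. It had 8 positive and 9 negative log2 changes and a median of -0.049. The genes of lowest p, Commd5 and Commd2, had log2 changes of -0.32 (adjusted p = 0.572) and -0.30 (adjusted p = 0.626). Commd5 had 648 ± 92.3 normalized counts in BODIPY-high and 810.0 ± 105 in BODIPY-low. Vps35l (listed as 9030624J02Rik), the counterpart of Vps35 in the Commander complex, had 7335 ± 573 in BODIPY-high and 6538 ± 487 in BODIPY-low (log2 change 0.17, adjusted p = 0.663). It was chosen after its values were seen.

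Of the receptors known as Snx17 cargo, Vldlr rose. Vldlr, the gene of the VLDL receptor, had 20, 50 and 60 reads in the BODIPY-high libraries, and 0, 1 and 0 reads in the BODIPY-low libraries. After scaling by the size factors the ratio was 119, and counting error alone gave it an exact 95% interval of 21.0 to 4741 (limma adjusted p = 0.0175). Vldlr met the filter of at least 10 normalized counts in at least 3 libraries through its BODIPY-high libraries alone. Its p-value is therefore a description and not independent support for a difference. The call was lost on leaving out BODIPY-high library 2 (adjusted p = 0.140) or 3 (0.115). The BODIPY-high libraries also had more choroid plexus and border-associated macrophage markers, and the part of these in the Vldlr call was not tested.

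**Figure D4:**
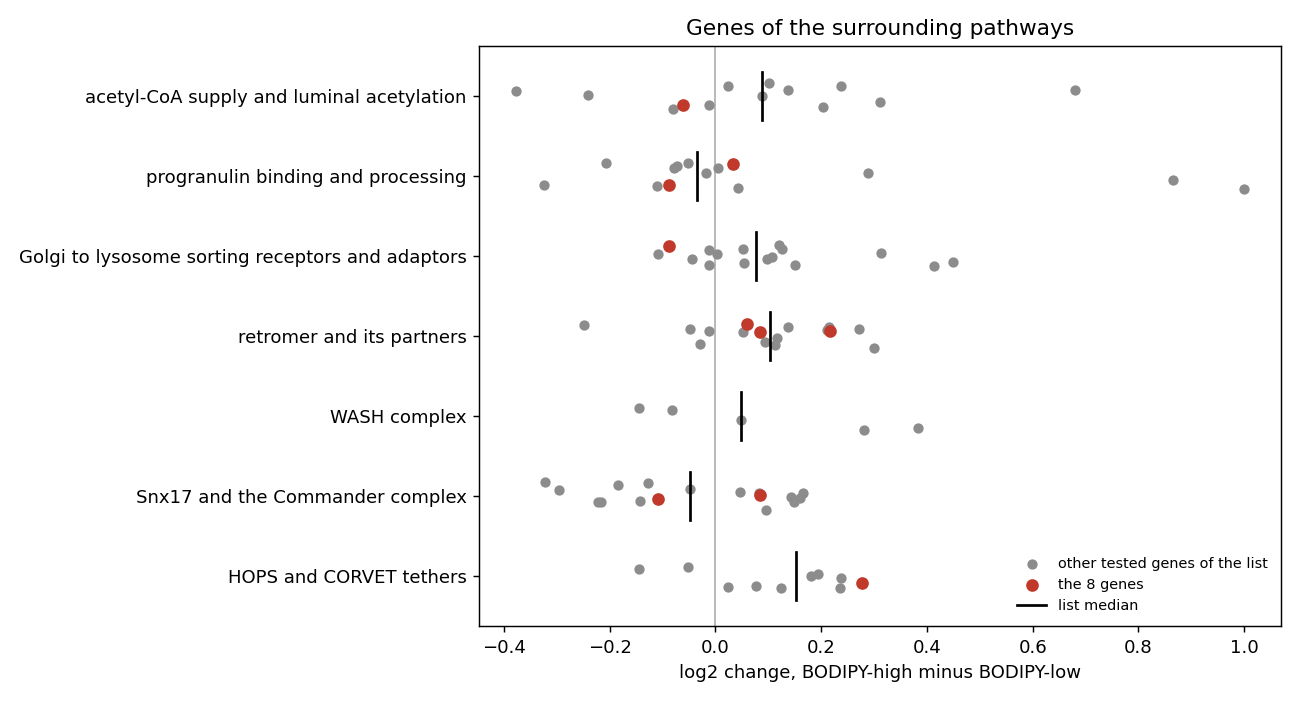
Log2 change, BODIPY-high minus BODIPY-low (horizontal axis), of the tested genes of 7 surrounding pathways (vertical axis), with the 8 genes in red, other genes in grey and the list median as a black bar. None of the points shown passed limma, and the medians of these 7 lists lie between -0.049 and 0.15. The lists of Snx17 cargo and of genes raised in Grn-deficient microglia, which did hold limma calls, are not shown.

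Vps16 had the largest log2 change of the 8 genes, and its coefficient of variation was 4.94% in BODIPY-high and 3.12% in BODIPY-low libraries. It lies on chromosome 2, 130424339 to 130444269, on the plus strand, and had 2200.2, 2053 and 2002 normalized counts in BODIPY-high libraries 1 to 3, and 1764, 1737 and 1660.5 in BODIPY-low libraries 1 to 3. Every BODIPY-high library was above every BODIPY-low library, with a gap wider than the spread of either gate. The means were 2085 ± 103 in BODIPY-high and 1720.5 ± 53.7 in BODIPY-low (SD, n = 3 each), a ratio of 1.21 (log2 change 0.28 ± 0.10, 95% interval 0.05 to 0.50). With an unadjusted p of 0.0201 it did not pass the adjustment over all genes (limma adjusted p = 0.324, edgeR 0.356, DESeq2 0.246, limma with the block 0.130). The change stayed between 0.24 and 0.31 when any 1 library was left out. By size of change Vps16 ranked 3735 of the 12767 genes tested.

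The other tethering genes did not pass either. In a list of 10 genes of HOPS, CORVET and related tethers, 0 passed limma, edgeR or DESeq2. The list includes Vps33b and Vipas39, relatives that are not HOPS or CORVET subunits (log2 changes 0.24 and 0.024). Of the 10, 8 had positive and 2 negative log2 changes, and the median was 0.15, against -0.0043 over all genes tested. At an unadjusted p under 0.05, 2 were higher and 0 lower, against 8.03% and 2.27% of all genes tested. The 2 were Vps16 and Vps39, a HOPS subunit that binds Rab7. Vps39 had 4573, 4144 and 4246 normalized counts in BODIPY-high and 3677, 3563 and 3747 in BODIPY-low libraries, again with no overlap (log2 change 0.24 ± 0.09, adjusted p = 0.352).

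The start of Vps16 and that of Vps26a share a sequence feature that played no part in their choice, and both are shown for that reason. The windows run from 250 bases before to 50 bases after the RefSeq start (GRCm38.p6, the assembly of mm10), written 5′ to 3′ along the gene, and capitals mark CACGTG, the E-box bound by many helix-loop-helix factors, or its longer palindrome TCACGTGA. Both motifs read the same on both strands, and every TCACGTGA also holds a CACGTG. The windows were chr2:130424070-130424369 (plus strand) for Vps16 and chr10:62486756-62487055 (minus strand) for Vps26a.
Vps16: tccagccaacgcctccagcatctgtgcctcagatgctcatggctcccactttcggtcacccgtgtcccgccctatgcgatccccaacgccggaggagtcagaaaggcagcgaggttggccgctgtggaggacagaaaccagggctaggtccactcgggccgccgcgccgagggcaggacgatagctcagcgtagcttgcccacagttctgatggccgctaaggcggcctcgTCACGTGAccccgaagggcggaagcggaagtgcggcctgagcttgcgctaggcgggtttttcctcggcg
Vps26a: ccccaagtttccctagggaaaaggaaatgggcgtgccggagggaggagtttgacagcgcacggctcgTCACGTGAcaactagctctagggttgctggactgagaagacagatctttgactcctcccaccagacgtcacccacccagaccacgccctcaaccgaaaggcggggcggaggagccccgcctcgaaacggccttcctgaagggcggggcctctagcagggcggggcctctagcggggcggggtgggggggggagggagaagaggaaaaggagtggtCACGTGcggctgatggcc
In Vps16 the TCACGTGA began 19 bases before the start. In this window of Vps26a it began 183 bases before the start, with a second CACGTG 32 bases after it. Vps26a has another RefSeq start, with the window chr10:62486549-62486848, not shown. There a TCACGTGA began 152 bases before the start, and the second CACGTG of the shown window lay 175 bases before it. Positions therefore depend on the start taken, and the 6 genes with windows had 7 windows. RefSeq windows were found for 6 of the 8 genes, and not for Vps35 and Sort1. Of these 6, 3 held CACGTG (Slc33a1, Vps16 and Vps26a) and 2 held TCACGTGA (Vps16 and Vps26a). Of the 9745 tested genes with a window, 11.7% held CACGTG and 2.18% held TCACGTGA. Of all 32851 windows of the same length, tested or not, 7.15% held CACGTG and 0.974% held TCACGTGA. The tested genes with TCACGTGA numbered 212. Of these 212, limma called 0 higher and 0 lower, and their median log2 change was 0.00049.

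The 8 genes did not vary as one group over the 6 libraries. Slc33a1 and Sort1 varied most alike, with Pearson's r of 0.972 between their log2 values, and Vps16 with Vps35 had 0.804, while Snx17 ran against both Vps16 (-0.865) and Vps35 (-0.837). Libraries of a gate share their sort and libraries of a number deviate together, so these values over 6 libraries are descriptions. The genes whose pattern was most like that of Slc33a1, among 10452 genes with a mean of at least 50, were Tmem194b (r = 0.997) and Cryzl1 (0.995). Those most like Grn were Fam188b (0.992) and Ubxn2b (0.981), and those most like Vps35 were Copa (0.988), a subunit of the COPI coat, and Cep72 (0.978). With so many genes and 6 libraries, 81 genes exceeded 0.95 for Slc33a1, 34 for Grn and 19 for Vps35.

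Reads of some members may include those of a neighbour, since the library kits do not keep strand. In GENCODE M21, exons of Vps16 overlap those of Pced1a on the other strand by 109 bases, and Pced1a had 265 to 347 normalized counts in BODIPY-high and 267 to 336 in BODIPY-low libraries. Exons of Slc33a1 overlap an antisense gene by 1136 bases of 3548, those of Sort1 by 338, those of Vps29 and Fam216a by 340, those of Vps35 and Orc6 by 171, and those of Grn and Fam171a2 by 68, while Vps26a has no such overlap. Those of Snx17 overlap Eif2b4 by 204 bases and Zfp513 by 163.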

How the data were processed

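Total RNA of sorted microglia was made into libraries with the Smart-seq v4 and Nextera XT kits, per the labels' protocols. Per the series' design text, the authors aligned reads to mm10 with STAR 2.5.3a, counted them per gene and used DESeq2 with standard settings; the submitters' processing notes list mm9 and mm10, and neither annotation nor strand setting is given in the sources used here. Each deposited value is a signal, a read count per gene after division by the library's size factor (0.911 to 1.09) by the authors. Every value was a whole multiple of 1 step within 0.05 of a read, which gave back whole reads (100% of values in each library). Rows with a date in place of a symbol (23) were left unnamed.

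Genes with at least 10 normalized counts in at least 3 of 6 libraries (12767) were tested with limma-trend (limma 3.58.1 in R 4.3.3). The values were log2(normalized count + 1), the gate was the only term and p was two-sided. Fold changes on this scale understate those of low genes. P-values were adjusted by Benjamini-Hochberg over these genes, and calls were made at 0.05. The test was tried on simulated data. Alternatives were edgeR 4.0.16 and DESeq2 1.42.0 on recovered reads, TMM factors, other pseudocounts and filters, a replicate block, and leaving out each library. Libraries of the same number deviated together from their gate means (r = 0.534, 0.396 and 0.513 for numbers 1, 2 and 3 over 10912 genes). The numbers were therefore taken to pair the samples. Between different numbers r was -0.363 to -0.116. Subtracting the gate means makes these values negative on average where the same-number values are positive, so they add no support. The labels do not say that samples of a gate came from separate animals, so a p-value here reflects only how these samples vary, which may be technical.

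The 8 genes and all lists were chosen with earlier results of these data known. Named genes are the 8, up to 4 called members of each pathway list or its 2 members of lowest p, and the 2 genes of highest correlation with Slc33a1, Grn and Vps35 each; Psap, Trem2, Vps35l and Vps26b were added after their values were seen. Intervals of counts cover counting error only, and the precision of a value is limited by 3 libraries per gate. Protein sequences were not used here, and some results on Snx17 cargo are not reported here.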

Additional observations from a re-analysis of the deposited data

How the results depend on the processing

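No member was called by limma, edgeR or DESeq2 under any alternative run. Vps16, Vps35 and Vps29 stayed positive and Snx17 stayed negative under all of them. The alternatives that turned a sign all left out 1 library: the log2 change then ran from -0.14 to 0.095 for Slc33a1, from -0.013 to 0.12 for Vps26a, from -0.058 to 0.13 for Grn and from -0.16 to 0.024 for Sort1, and the difference in the share of Vps26a from -2.21 to 0.897 percentage points. The cause was not tested. Over the whole table, where 259 genes were higher and 3 lower, leaving out 1 library gave 15 to 271 higher and 0 to 2 lower. The replicate block gave 558 and 59, DESeq2 464 and 32, edgeR with the block (added after seeing the data) 499 and 50, and a minimum of 50 normalized counts 131 and 1, while edgeR without the block called 1 lower. The block changed no call of the 8 genes. Merged exon lengths, also added later, changed the order of levels given above and not the difference in the share of Vps26a (-0.586). With 3 libraries per gate, changes within the stated intervals cannot be told from none.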
